A study of Mus musculus with 20 samples.

Results

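Oxidative phosphorylation is run by 5 protein complexes of the inner mitochondrial membrane, and the nuclear genes that encode their subunits were followed here through normal skin (NS), actinic keratosis (AK) and cutaneous squamous cell carcinoma (cSCC). The genes were chosen by symbol alone, as those beginning with Nduf and a subunit letter and number, Uqcr, Cox4 to Cox8 or Atp5, with Sdha, Sdhb, Sdhc and Sdhd added. This gave 84 of the 22090 genes in the count table. There were 37 for complex I, 4 for complex II, 8 for complex III, 18 for complex IV and 17 for complex V. The choice by name takes in Ndufa4 and Ndufa4l2, listed here with complex I although NDUFA4 is now placed in complex IV, and a few proteins that are not core subunits, such as Cox7a2l, a factor for supercomplexes, and Atp5s and Atp5sl. It leaves out Cyc1, Ndufab1 and other subunits with unrelated names.

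The tissues came from 8 hairless mice of the SKH-1 strain, all female and supplied at 7 months of age, 4 then kept without ultraviolet light and 4 irradiated. SKH-1 mice are an outbred, immunocompetent strain that loses its fur early and develops skin tumours under ultraviolet light. NS comprised 8 samples, taken from unirradiated and from irradiated mice, which the sample labels do not tell apart. AK comprised 8 lesions and cSCC 4 tumours, all from the 4 irradiated mice, and the labels do not say which tissues share a mouse. All tests treat samples as independent, so p-values may be too small where tissues of a mouse resemble each other.

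In the respiratory chain, complexes I (Nduf genes) and II (Sdh genes) pass electrons from NADH and succinate to ubiquinone, complex III (Uqcr genes) hands them on to cytochrome c, complex IV (Cox genes) delivers them to oxygen, and complex V (Atp5 genes) uses the proton gradient to make ATP. Several subunits exist as pairs of isoforms. Cox6a2, Cox7a1 and Cox8b are the forms of heart and skeletal muscle, while Cox6a1, Cox7a2 and Cox8a are made in most tissues, and Ndufa4l2 is a known hypoxia-induced relative of Ndufa4. Complexes I, III, IV and V also hold subunits encoded by mitochondrial DNA. The 13 mitochondrial protein genes were listed at 0 counts in all 20 samples, so the nuclear subunits could not be compared with them.

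Promoters are printed for the muscle form Cox8b and its general partner Cox8a, for Cox7a1, and for Uqcrc1, because the muscle forms fell the most in AK and Uqcrc1 was the member that stayed high in cSCC under each alternative. Each runs from 250 bases before to 50 bases after the start of the gene (RefSeq, GRCm38.p6), 5′ to 3′ on the gene's strand. Capitals mark matches on either strand to the core of the NRF1 motif (GCGCANGCG), the core of the ETS motif (CCGGAAG) or the muscle E-box (CAGCTG).
Cox8b, chr7:140900397-140900696, minus strand: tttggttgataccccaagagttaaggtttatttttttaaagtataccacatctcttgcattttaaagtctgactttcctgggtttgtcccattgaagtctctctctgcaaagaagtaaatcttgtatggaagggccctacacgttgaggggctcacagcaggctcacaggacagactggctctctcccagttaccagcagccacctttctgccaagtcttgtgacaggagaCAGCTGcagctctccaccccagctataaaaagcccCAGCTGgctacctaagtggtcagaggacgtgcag
Cox8a, chr19:7217567-7217866, minus strand: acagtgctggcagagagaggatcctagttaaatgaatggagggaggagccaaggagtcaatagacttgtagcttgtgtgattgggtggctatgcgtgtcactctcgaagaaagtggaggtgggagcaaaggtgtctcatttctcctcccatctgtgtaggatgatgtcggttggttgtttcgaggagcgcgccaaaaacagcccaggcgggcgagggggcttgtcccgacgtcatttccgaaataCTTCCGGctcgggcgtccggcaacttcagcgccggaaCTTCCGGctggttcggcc
Cox7a1, chr7:30183921-30184220, plus strand: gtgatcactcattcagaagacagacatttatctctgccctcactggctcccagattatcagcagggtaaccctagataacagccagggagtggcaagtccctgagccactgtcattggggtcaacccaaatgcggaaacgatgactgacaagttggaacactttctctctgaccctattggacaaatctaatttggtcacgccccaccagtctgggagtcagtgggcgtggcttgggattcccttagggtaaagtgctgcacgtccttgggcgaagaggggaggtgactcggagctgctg
Uqcrc1, chr9:108936398-108936697, plus strand: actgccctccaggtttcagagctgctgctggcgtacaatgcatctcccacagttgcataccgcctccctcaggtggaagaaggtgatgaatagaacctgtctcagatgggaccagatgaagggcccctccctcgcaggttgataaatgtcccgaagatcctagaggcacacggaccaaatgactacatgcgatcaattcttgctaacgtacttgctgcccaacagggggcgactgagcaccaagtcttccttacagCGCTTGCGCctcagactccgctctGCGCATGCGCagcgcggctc
Cox8b held 2 E-boxes and no match to the other motifs, Cox8a held 2 ETS cores, Uqcrc1 held 3 NRF1 cores of which 2 overlap, and Cox7a1 held none of them. Promoters were found for 69 of the 84 members. Of these, 20 (29.0%) held the NRF1 core, against 7.03% of the promoters of all 27025 genes in the table. The ETS core was in 16 members (23.2%, against 9.93% of all) and the E-box in 6 (8.70%, against 18.3%). These are letter matches, and binding was not measured.

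Library totals ranged from 775750 to 14055206 counts. The 84 members together took 1.94 to 2.70% of the counts in NS and 1.44 to 2.03% in AK. With genes of red blood cells set aside, these ranges were 1.95 to 2.74% in NS and 1.62 to 2.05% in AK. In cSCC replicates 18, 19, 20 and 21 the members took 1.25, 1.32, 1.58 and 7.11% of all counts (95% Wilson interval for replicate 21, 7.09 to 7.13%, covering counting error only). Replicate 21 thus stood far above the other 19 samples. It also carried transcripts of heart muscle. The 12 heart markers summed to 68721 CPM in it (library-scaled counts after TMM normalization, the level used throughout) and to at most 195 in any other sample, with Myh6 at 11153 and Actc1 at 15454. Myl7, the atrial light chain, was listed at 0. Replicate 20 carried lung transcripts (36151 CPM over 9 markers, at most 61.8 elsewhere), and in replicate 18 genes of red blood cells took 46.9% of the counts, so that its share of 1.25% became 2.35% with those genes set aside. The counts of called members and their median in cSCC are therefore given with and without replicate 21. Some results for single genes, and those by transcript length, are given without it alone.

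**Figure D1:**
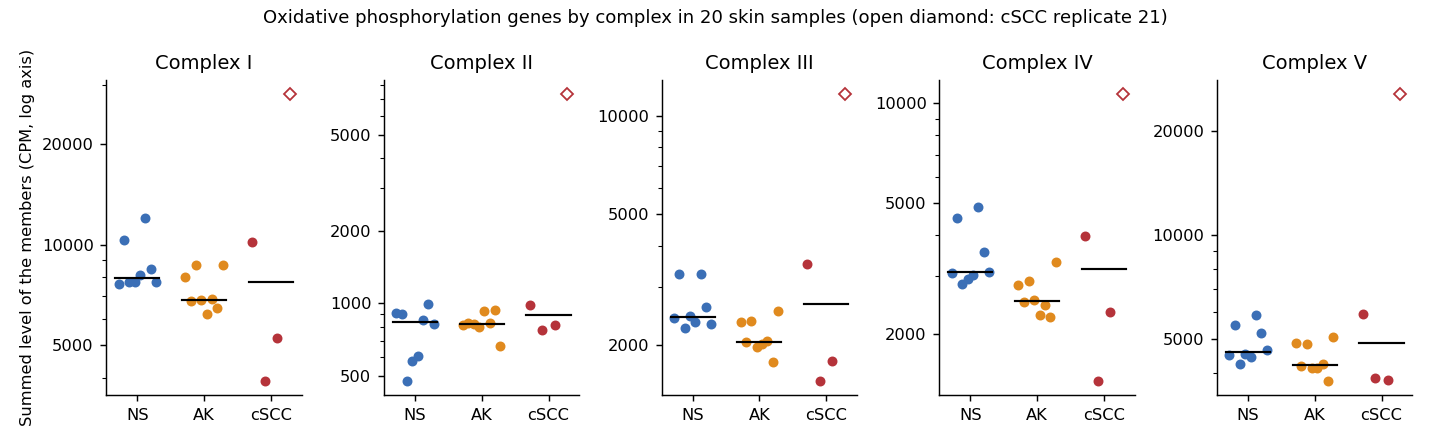
Summed level of the members of each complex (CPM, log axis) in the 20 samples, 1 point per sample, with a bar at the median of each group over all its samples. The open diamond, cSCC replicate 21, lies above every other sample in all 5 panels, and the complex II sums of the other samples stay between 478 and 989 CPM.

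In NS the highest level per kilobase of transcript was that of Ndufa4, at 3503 ± 1230 CPM per kb (SD, n = 8). Its level was more than 3 times that of the next member, Cox6b1, an intermembrane-space subunit of complex IV at 1079 ± 265 CPM per kb. Uqcrq, a small subunit of complex III, led its complex with 915 ± 252 CPM per kb and Atp5j, coupling factor 6 of the ATP synthase stalk, led complex V with 684 ± 152. Cox6b1 and Uqcrq did not differ beyond this spread. Complex II was lower, with Sdhb, its iron-sulphur subunit, at 242 ± 72.5, Sdhd at 211 ± 71.9, the flavoprotein Sdha at 62.1 ± 11.1 and the membrane anchor Sdhc at 26.1 ± 9.39 CPM per kb. Among isoforms, Cox7a2 stood at 621 ± 141 and Cox7a1 at 102 ± 53.3, Cox6a1 at 535 ± 203 and Cox6a2 at 112 ± 60.4, and Cox8a at 333 ± 69.7 and Cox8b at 123 ± 62.3 CPM per kb. Cox4i1, the regulatory subunit of complex IV in most tissues, was at 601 ± 196 CPM per kb, while its lung and hypoxia form Cox4i2 had 14 counts over the 8 NS samples together. The 3 genes for the identical c-ring peptide of ATP synthase differed in level, with Atp5g3 at 438 ± 97.7, Atp5g2 at 66.2 ± 9.55 and Atp5g1 at 52.2 ± 13.8 CPM per kb. Cox7b2 and Cox8c, known from testis, had no count in NS.

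AK were compared with NS to ask what changes at the precancerous stage. Of the 84 members, 81 had enough counts to be tested. No member rose, and 5 fell, passing both the adjusted p threshold of 0.05 and the fold limit of 0.67 (edgeR's quasi-likelihood test, Benjamini-Hochberg adjustment over all 11677 genes tested), where 2.38% of all genes were called lower and 2.26% higher. No member was higher at an unadjusted p under 0.05 either, nor by DESeq2 or limma voom. They were the muscle forms Cox7a1 and Cox8b of complex IV, Ndufa3, a small accessory subunit of complex I, and Atp5k and Atp5e, the subunits e and epsilon of complex V. By the adjusted p-value alone 8 fell, against 2.50% of all genes, the others being Ndufb2, Atp5g2 and Atp5h. The median log2 fold change of the members was -0.33, and that of all genes -0.04. All 4 complexes with many members were shifted the same way, with medians of -0.29 for complex I (34 of 37 below 0), -0.36 for complex III, -0.44 for complex IV and -0.31 for complex V, while that of complex II was 0.04. In bulk tissue, fewer cells of a type and less RNA per cell cannot be told apart.

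Cox7a1 (chr7:30184144-30186078, plus strand, GRCm38) ranged from 12.2 to 76.5 CPM in NS (median 46.0) and from 1.83 to 29.5 in AK (median 8.61). Its level was 4.29-fold lower in AK (log2 fold change -2.10, SE 0.48, adjusted p = 0.0231 by edgeR). Cox8b (chr7:140898945-140900446, minus strand) ranged from 12.2 to 76.5 CPM in NS (median 47.6) and from 5.04 to 29.9 in AK (median 9.98). It was 3.66-fold lower (log2 fold change -1.87, SE 0.39, adjusted p = 0.0190 by edgeR). The groups overlapped for both genes. AK replicate 11 was the highest AK sample for each, and the other 7 AK samples stayed at or below 12.6 CPM for Cox7a1 and 14.03 for Cox8b, levels above NS replicate 8 alone, the lowest NS sample at 12.2 CPM for both. The third muscle form, Cox6a2, had a log2 fold change of -1.32 (SE 0.57) that did not pass the test (adjusted p = 0.161), and its exons overlap those of Itgad on the other strand.

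As shares of the counts of each isoform pair, which do not depend on the scaling between libraries, Cox8b made up 19.2 ± 8.27% of Cox8a and Cox8b in NS (SD, n = 8) and 7.97 ± 4.85% in AK. The difference of -11.2 percentage points gave p = 0.00699 (two-sided exact permutation test), or 0.0548 after adjustment over the 15 shares and comparisons tested. Cox7a1 made up 9.70 ± 4.40% of its pair in NS and 3.64 ± 3.16% in AK (p = 0.0073, exact permutation test, adjusted p = 0.0548). Cox6a2 made up 20.8 ± 11.04% in NS and 11.1 ± 8.67% in AK (p = 0.0709, exact permutation test, adjusted p = 0.213). All 3 shares were thus lower in AK, and none passed the threshold after adjustment.

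The skeletal muscle content of the samples varied widely. The 13 muscle markers, among them Acta1, Ckm and the fast myosins, summed to between 829 and 10510.3 CPM in NS (median 4187) and between 29.9 and 6511 in AK (median 1481). All 13 had negative fold changes in AK vs. NS with a median of -1.31, and none passed the test. AK replicates 17 and 13 had the lowest sums, 29.9 and 97.2 CPM, with 7 of the 13 markers at 0 in replicate 17, and they also had the lowest Cox7a1, at 1.83 and 1.87 CPM, and the lowest Cox6a2, at 0.914 and 1.87 CPM. Cox8b did not follow, with 7.31 CPM in replicate 17, above 3 other AK samples, and 14.03 in replicate 13, exceeded in AK by replicate 11 alone. AK replicate 11 had the highest marker sum of the AK group and its highest Cox7a1, Cox8b and Cox6a2. NS replicate 8, in contrast, had the lowest Cox7a1 of NS beside a marker sum of 4030 CPM. The part of muscle content in the difference between AK and NS was not tested.

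**Figure D2:**
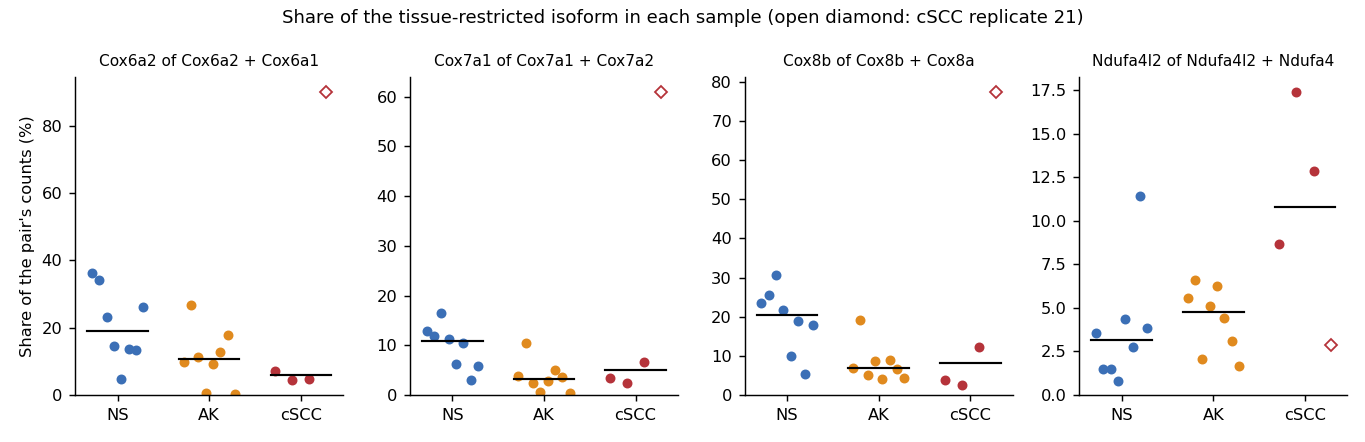
Share of the restricted isoform in the counts of its pair (%, linear axis from 0) for Cox6a2, Cox7a1, Cox8b and Ndufa4l2, 1 point per sample with a bar at the group median. The muscle forms reach 90.0, 60.9 and 77.5% in cSCC replicate 21 (open diamond) and at most 36.2% in any other sample, whereas the Ndufa4l2 share of that library is 2.84%, below the other 3 cSCC samples.

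Outside the muscle forms, Ndufa3 ranged from 114 to 254 CPM in NS and from 54.5 to 140.3 in AK (log2 fold change -0.98, SE 0.21, adjusted p = 0.0190 by edgeR). Its exons overlap those of Tfpt on the other strand, for which the log2 fold change was -0.07. Atp5k ranged from 50.2 to 163 CPM in NS and from 41.1 to 112 in AK (log2 fold change -0.80, SE 0.23, adjusted p = 0.0475 by edgeR). Atp5e ranged from 147 to 272 CPM in NS and from 73.7 to 179.9 in AK (log2 fold change -0.64, SE 0.18, adjusted p = 0.0436 by edgeR). The groups overlapped for each of these genes. Atp5g2 reached 48.4 CPM in NS (median 38.7) and ranged from 19.2 to 30.8 in AK (log2 fold change -0.53, SE 0.14, adjusted p = 0.0379 by edgeR), a change within the fold limit. These groups overlapped too, since the lowest NS sample, replicate 9, was below AK replicates 12 and 14.

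Of the 4 Sdh genes, Sdhc alone was shifted as far as the other complexes, and none passed the test. Sdha was at 180.1 ± 32.1 CPM in NS and 179.8 ± 22.4 in AK (SD, n = 8 each), and the log2 fold changes were -0.02 for Sdha, 0.10 for Sdhb, 0.24 for Sdhd and -0.45 for Sdhc, with SE from 0.13 to 0.25. Among the general isoforms, Cox4i1 had a log2 fold change of -0.19 (SE 0.18), Cox6a1 -0.32 (SE 0.19), Cox6b1 -0.28 (SE 0.17), Cox7a2 -0.44 (SE 0.17), Cox7a2l -0.35 (SE 0.14), Cox7b -0.49 (SE 0.22) and Cox8a -0.47 (SE 0.15). None of these passed the test, nor did Ndufa4, Uqcrq, Atp5j, Atp5g1 or Atp5g3, whose log2 fold changes lay between -0.48 and -0.25. Cox6b2, the testis form of Cox6b1, had a log2 fold change of 0.31 on few counts. Ndufa4l2 was at 57.0 ± 48.9 CPM in NS and 52.1 ± 19.2 in AK.

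The fold changes followed transcript length. Transcript length here is the median over the protein-coding transcripts of a gene (GENCODE M21), and the length classes were set after the values were seen. Of the 28 tested members under 600 nt, 27 were below 0 in AK vs. NS, with a median of -0.42, and all 5 called members are among them. The 17 members of 600 to 800 nt were all below 0 with a median of -0.40, while the 15 of 1200 to 2000 nt had a median of -0.05 and the 6 longer ones -0.03. Across the 80 members with a length, Spearman's rho of fold change and length was 0.51, and across 11239 genes 0.03. Short genes in general were also lower, with a median of -0.33 over the 273 genes under 600 nt. Summed CPM of members under 800 nt over that of members of at least 1200 nt was 1.65 to 2.87 in NS and 1.41 to 2.37 in AK. With a smooth trend on length added to each library's offsets, a setting chosen after seeing the data, Cox7a1 (log2 fold change -1.85), Cox8b (-1.60) and Ndufa3 (-0.80) were still called lower, Atp5k and Atp5e were not, and the median of the members was -0.18. What sets the relation with length was not tested.

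**Figure D3:**
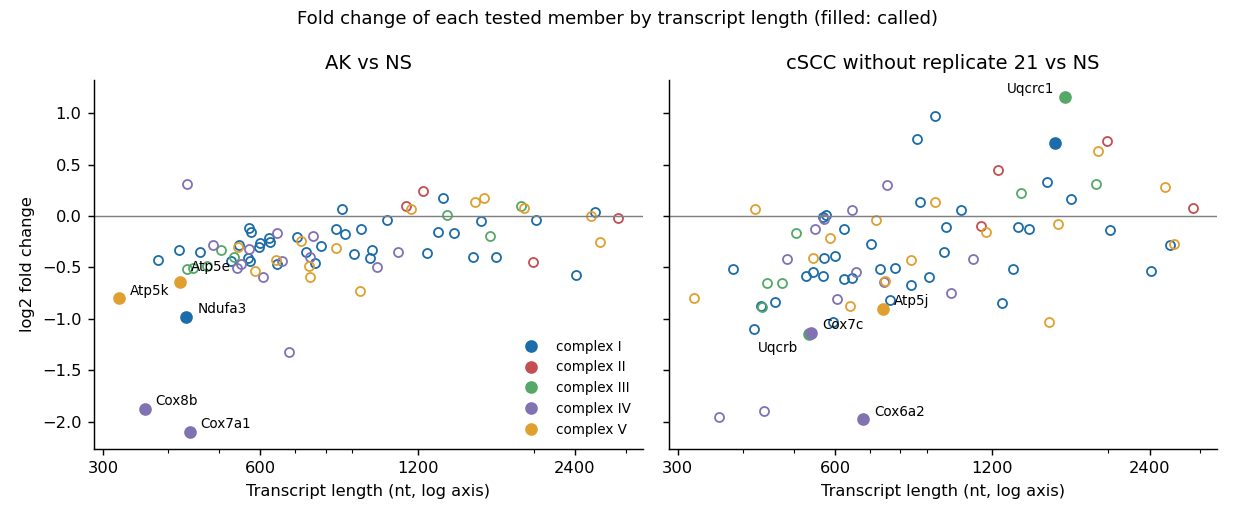
log2 fold change of each tested member (vertical axis) against its transcript length in nt (log axis), for AK vs. NS and for cSCC without replicate 21 vs. NS, coloured by complex, with called members filled and most of them named. In both panels members under 800 nt lie mostly below 0, and the filled points above 0, Uqcrc1 among them, are longer than 1200 nt.

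The AK count depended on the samples. Leaving out NS replicate 4 left 2 members lower, leaving out NS replicate 2, 5 or 7 or AK replicate 11, 12, 13, 14, 15 or 16 left 3, and leaving out AK replicate 17 gave 8. A single fit of all 20 samples called no member lower. The calls over all genes moved as well. With all AK and NS samples 278 of 11677 genes were lower, and without NS replicate 4 77 of 11807 were. Without AK replicate 17 the number was 213 of 11810, and in the single fit 4 of 12847.

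cSCC were compared with NS and with AK. With all 4 tumours, 13 of 80 tested members were higher than in NS, where 11.7% of all genes were called higher, and none was lower, where 7.65% were (edgeR, with no member lower at an unadjusted p under 0.05 either, 0 by DESeq2 and 4 by limma voom with quality weights). The median log2 fold change was 0.43 for the members and 0.14 for all genes. Against AK, 24 of 80 members were higher, against 16% of all genes, and none lower, against 8.34%, with medians of 0.85 and 0.17. No member was lower against AK at an unadjusted p under 0.05 (edgeR) or by DESeq2 or limma voom. The largest differences to AK were those of Cox7a1 (log2 fold change 4.76), Cox6a2 (3.85), Cox8b (3.78), Atp5sl (3.29) and Sdhc (3.21).

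These values rested on replicate 21. It had the highest level of all 20 samples for 71 of the 84 members, at a median of 3.19 times the median of the other 19. For the 4 Sdh genes the median ratio was 11.5, with Sdhc at 978 CPM against 66.0, 112 and 71.7 in cSCC replicates 18, 19 and 20. Cox7a1 reached 64.3 times and Cox6a2 39.9 times the median of the others, whereas Cox6a1 (163 CPM) and Cox8a (155 CPM) stood at 0.683 and 0.981 times. The 13 skeletal muscle markers did not go 1 way in this library, beside the heart markers given above. Acta1 was at 6859 and Ckm at 1445 CPM, and the sum of all 13 was 8449 CPM. Myh1, Myh2 and Myh4, the fast skeletal myosins, were at 2.48, 2.81 and 5.29 CPM. Among called members, the log2 fold change of cSCC vs. NS was 2.70 for Uqcrc1, 2.64 for Sdhc, 2.57 for Ndufv1, the NADH-binding subunit, 2.50 for Atp5sl, 2.19 for Sdha, 2.01 for Atp5b, the catalytic beta subunit, and 1.99 for Uqcrfs1, the Rieske protein. Of these, Uqcrc1 was called without replicate 21, and the others were then between -0.15 and 0.73.

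**Figure D4:**
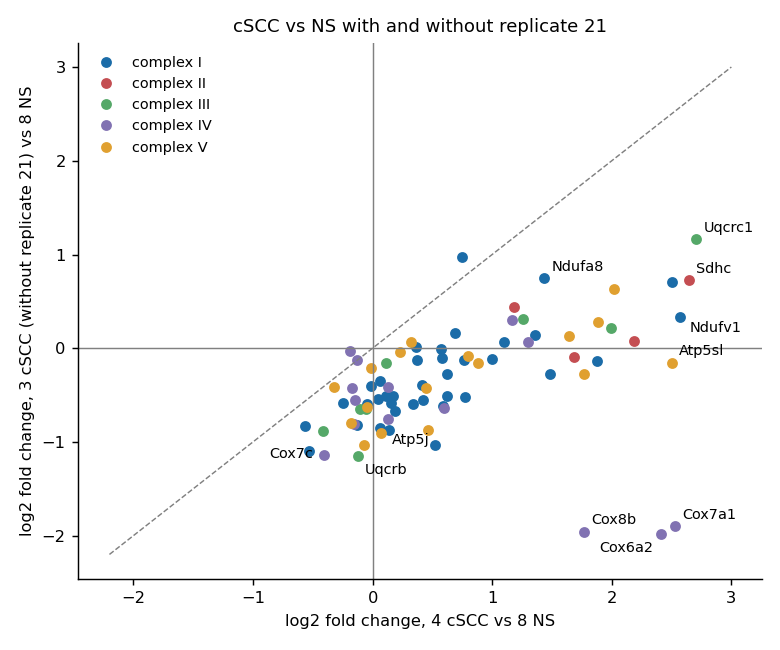
log2 fold change of each member in cSCC vs. NS with all 4 tumours (horizontal axis) and with replicate 21 left out (vertical axis), coloured by complex, and the dashed line marks equal values. Of the 80 points 77 lie below the dashed line, and the muscle forms Cox6a2, Cox7a1 and Cox8b move from 2.41, 2.53 and 1.77 to -1.98, -1.89 and -1.96.

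Without replicate 21, 2 members were higher in cSCC than in NS, against 6.97% of all genes, and 4 were lower, against 7.24%. The median of the 80 members was -0.40, and that of all genes 0.01. Against AK, 5 members were higher, where 6.90% of all genes were, and none lower, where 7.83% were (edgeR, 5 at an unadjusted p under 0.05), with a median of -0.12 (all genes -0.03). The shares of members called were thus near or below those of all genes. Left without replicates 20 and 21 together, which leaves 2 tumours, the same 2 members, Uqcrc1 among them, were called higher than in NS, Cox8b was the member called lower (log2 fold change -3.06, SE 0.77), and the same 5 members were called higher than in AK. Of all genes, 733 of 12762 were then higher and 825 lower than in NS, and 843 of 12567 higher than in AK.

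Uqcrc1 (chr9:108936633-108949623, plus strand), core protein 1 of complex III, ranged from 185 to 411 CPM in NS (median 212) and from 97.1 to 345 in AK (median 211). cSCC replicates 18, 19, 20 and 21 had 689.7, 555, 359.5 and 4492 CPM, so that all 4 were above every AK sample and 3 of the 4 above every NS sample. Without replicate 21 the log2 fold change was 1.16 against NS (SE 0.28, adjusted p = 0.0150 by edgeR) and 1.31 against AK (SE 0.35, adjusted p = 0.0217). Its call held in all 22 alternatives run for each comparison with cSCC. Cyc1, cytochrome c1 of the same complex and outside the set chosen by name, was also called higher without replicate 21, with log2 fold changes of 1.07 against NS and 1.27 against AK.

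Sdhc, a membrane anchor of complex II, was at 10.1 to 57.3 CPM in AK and at 66.0, 112, 71.7 and 978 in the tumours, all above AK. Its log2 fold change without replicate 21 was 1.13 against AK (SE 0.33, adjusted p = 0.0312 by edgeR) and 0.73 against NS, where the adjusted p of 0.122 missed the threshold. Ndufa8, an accessory subunit on the intermembrane side of complex I, was at 134 to 198 CPM in AK and at 350.1, 206, 245 and 890.2 in the tumours, with a log2 fold change of 0.64 against AK without replicate 21 (SE 0.20, adjusted p = 0.0481 by edgeR).

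Ndufa4l2 went against replicate 21. The tumours had 163, 80.4, 81.9 and 45.3 CPM, so that the library with heart transcripts was the lowest, and AK ranged from 27.0 to 87.3 CPM. Without replicate 21 the log2 fold change was 1.06 against AK (SE 0.32, adjusted p = 0.0353 by edgeR) and 0.97 against NS (SE 0.56, adjusted p = 0.260), where NS replicate 8 alone had 166 CPM and the other 7 at most 76.7. As a share of Ndufa4 and Ndufa4l2 it made up 8.69, 17.4, 12.9 and 2.84% in cSCC replicates 18 to 21, 4.34 ± 1.88% in AK and 3.71 ± 3.36% in NS. Ndufa4 itself was at 1715, 381, 555 and 1548 CPM in these tumours, 791 to 2123 in AK and 896 to 2712 in NS. The high shares of replicates 19 and 20 thus go with a low Ndufa4. Without replicate 21 the difference in this share to AK was 8.65 percentage points (p = 0.0121, exact permutation test, adjusted p = 0.0808 over 10 tests). With all 4 tumours it was 6.12 percentage points (p = 0.0444, exact permutation test, adjusted p = 0.212 over 15 tests). Shmt2, whose exons overlap those of Ndufa4l2 on the other strand, had a log2 fold change of 0.40 against AK without replicate 21 and was not called. With all 4 tumours Shmt2 was called higher than in AK (log2 fold change 1.26, adjusted p = 0.0257 by edgeR).

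Lower than in NS without replicate 21 were Cox6a2 (log2 fold change -1.98, SE 0.63, adjusted p = 0.049999, just under the threshold), Uqcrb (-1.15, SE 0.33, adjusted p = 0.0342), Cox7c (-1.14, SE 0.31, adjusted p = 0.0279) and Atp5j (-0.90, SE 0.28, adjusted p = 0.0451), all by edgeR. In the same fit 8 of the 13 skeletal muscle markers were called lower, with Tnnc2 at -2.63 and Myh1 at -2.43, and their summed level was 1255, 590.1 and 972 CPM in cSCC replicates 18, 19 and 20. Also called lower were 3 of 8 keratinocyte markers, the differentiation genes Lor (-5.99), Krt10 (-3.67) and Krt1 (-3.07), and 4 of 5 tested sebaceous markers, among them Far2 (-4.99). Krt14 and Krt5 of the keratinocyte list were not called lower. Krt14 was at 14100, 13516 and 4115 CPM in cSCC replicates 18, 19 and 20, against 3660 to 13137 in NS. Krt5 was at 2160, 3141 and 651 CPM, against 624 to 2190. Trp63, Dsp and Perp, also not called lower, were below every NS sample in replicate 20. The part of these differences in tissue makeup in the lower levels of the members was not tested. Uqcrb is a ubiquinone-binding subunit of complex III and Cox7c a small subunit of complex IV. Cox7c had 93.1, 36.0 and 52.3 CPM in cSCC replicates 18, 19 and 20, all below the NS range of 102 to 205, and 211 in replicate 21. Uqcrb had 261, 85.7 and 121 CPM against 291 to 508 in NS, and Atp5j 346, 192 and 253 against 406 to 730.0, so that these groups did not overlap either. Replicate 19 was the lowest for all 3 genes. The exons of Uqcrb and Atp5j overlap those of Gm10767 and Gabpa on the other strand.

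**Figure D5:**
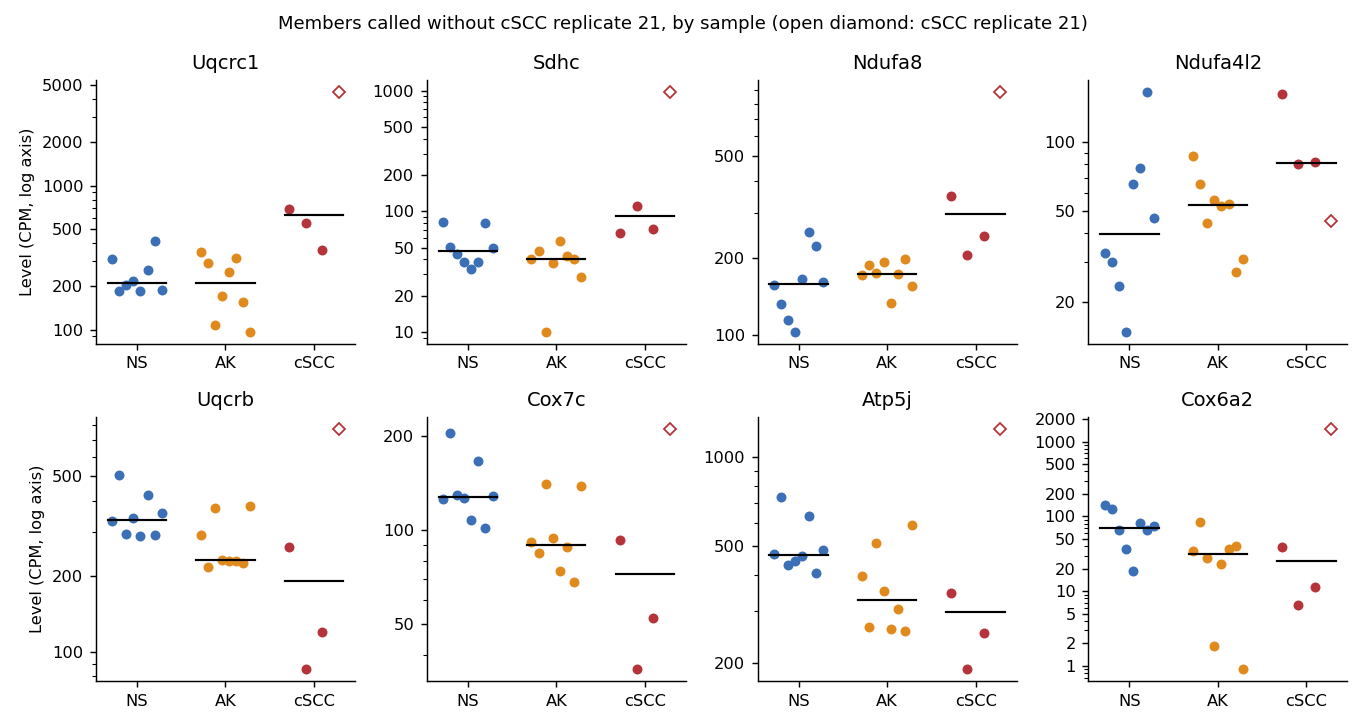
Level (CPM, log axis) of 8 members called in cSCC without replicate 21, 1 point per sample with a bar at the group median over all samples, and the open diamond is replicate 21. The filled cSCC points lie above all AK points for Uqcrc1, Sdhc and Ndufa8 but overlap NS there, they lie below all NS points for Uqcrb, Cox7c and Atp5j, they overlap NS for Cox6a2, and replicate 21 is the highest point in every panel except that of Ndufa4l2.

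Shorter members were also lower in the tumours without replicate 21. Of the 27 members under 600 nt, 25 were below 0 against NS with a median of -0.59, and the 17 of 600 to 800 nt had a median of -0.60, while the 14 of 800 to 1200 nt had -0.13, the 15 of 1200 to 2000 nt 0.22 and the 6 longer ones -0.20. Spearman's rho across the 79 members with a length was 0.53, and across all genes -0.17. All genes under 600 nt had a median of -0.22. The ratio of short to long members was 1.83, 0.725, 1.39 and 0.627 in cSCC replicates 18 to 21. With the length trend in the offsets and without replicate 21, 11 of 79 tested members were called lower than in NS and 2 higher, Uqcrc1 and Ndufa8. Of all 11862 genes tested there, 730 were lower and 951 higher. Among the 11 were Ndufa5 (log2 fold change -1.06), Ndufa1 (-1.05) and Ndufa13 (-1.01) of complex I beside the 4 named above. Against AK the same setting called 4 of 80 members higher, Uqcrc1, Sdhc, Ndufa4l2 and Atp5e, and 4 lower, Ndufa1, Ndufa5, Uqcrb and Cox7c. Of all 11684 genes, 873 were higher and 640 lower.

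Genes that serve the same organelle were followed as lists. In AK vs. NS none of the 40 tested assembly factors, 14 carriers and exchangers, 18 genes of the TCA cycle and pyruvate dehydrogenase, 11 regulators of mitochondrial biogenesis or 76 mitochondrial ribosomal proteins was called, and their medians lay between -0.03 and 0.02. In cSCC vs. NS with all tumours, 15 of the 18 TCA genes were higher (median 1.89), among them Idh2 (3.97), with 7 of 14 carriers, led by the adenine nucleotide translocase Slc25a4 (3.52), 9 of the assembly factors, 13 of the 76 ribosomal proteins and the regulators Ppargc1b (2.10) and Esrra (1.75), against 11.7% of all genes. Without replicate 21, of these lists there remained Mdh2 (1.01), the malate dehydrogenase of mitochondria, Cyc1 (1.07), the assembly factor Cox18 (1.66) and 5 ribosomal proteins, Mrpl3 (1.18), Mrpl37 (1.10), Mrpl12 (0.95), Mrpl28 (0.90) and Mrps23 (0.73), where 6.97% of all genes were called higher. The assembly factor Acad9 was lower (-1.15), and no regulator was called. Against AK without replicate 21, Cyc1, Mdh2 (0.84), Idh2 (0.94) and 6 ribosomal proteins were higher and Sucla2 (-0.97), a subunit of succinyl-CoA ligase, lower.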

How the data were processed

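RNA of normal skin, actinic keratosis and cSCC was sequenced by the authors, who deposited 1 table of raw read counts per gene (whole numbers, not normalized, replicates kept apart). The submitters' processing notes name Trimmomatic 0.36, HISAT2 2.0.5 and featureCounts 1.5.2. The sources differ on the genome build, and whether counting used strand is not given in the sources used here. Members that share exons with a gene on the other strand or have processed copies are therefore uncertain. For 20 of 84 members such a gene is protein-coding and in the count table. Others, such as Atp5d and Ndufb6, share exons with genes on the other strand that the count table does not list.

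Each pair of groups was fitted with edgeR 4.0.16 in R 4.3.3 (filterByExpr, TMM, quasi-likelihood test), with Benjamini-Hochberg adjustment over all genes, and called at an adjusted p under 0.05 and a fold above 1.5 or below 0.67. Isoform shares were compared by two-sided exact permutation tests in scipy 1.17.1. The named genes were the highest member of each complex per kilobase in NS, the called members (at most 8 in each direction), isoform pairs and the Sdh genes, and a few items are not reported here. Samples were grouped by their labels. Within groups no 2 libraries agreed within sampling noise (62 pairs, smallest chi-square per degree of freedom 11.3). DESeq2 1.42.0, limma 3.58.1 (voom), other scalings and filters, and libraries left out were run as alternatives. The length trend was a loess on transcript length per library (span 0.5). The fits were tested on simulated data. Coordinates are from GENCODE M21 and GRCm38. The members and lists were chosen with earlier results of these data known.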

Additional observations from a re-analysis of the deposited data

Results flagged for a closer look

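Of 117 sets of values (1 measure in 1 group) examined, 33 had a highest or lowest sample whose gap to its neighbour exceeded Dixon's 95% critical value. For a single set chance gives this about 1 time in 20. The sets share libraries and include genes named for their values in these data, so the 33 cannot be set against that rate. In 22 of them the sample was cSCC replicate 21, the library with heart transcripts. Its summed level was 7372 CPM for complex II and 25560.5 for complex V, and its shares of the muscle forms were 90.0% for Cox6a2, 60.9% for Cox7a1 and 77.5% for Cox8b. In complex I it stood apart at 1725 CPM for Ndufv1, 416 for Ndufs4 and 1811 for Ndufa10. In complexes II and III it had 2556 CPM for Sdha, 2615 for Sdhb, 978 for Sdhc, 4492 for Uqcrc1 and 2495 for Uqcrfs1. In complex IV the levels were 1474 CPM for Cox6a2, 937 for Cox7a1 and 534 for Cox8b. In complex V they were 6223 CPM for Atp5a1, 7893 for Atp5b, 737 for Atp5d, 1468 for Atp5g1, 1244 for Atp5j and 75.6 for Atp5sl.

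AK replicate 11, which had the highest muscle marker sum of its group, stood apart with a Cox7a1 share of 10.4% and level of 29.5 CPM, and with a Cox8b share of 19.1% and level of 29.9 CPM. NS replicate 8 stood apart for Ndufa4l2, with a share of 11.4% and a level of 166 CPM. The other such values were a Cox4i2 share of 0.434% and an Atp5b level of 982 CPM in AK replicate 10, an Atp5d level of 9.59 CPM in AK replicate 16, an Atp5k level of 112 CPM in AK replicate 17 and an Sdha level of 251 CPM in NS replicate 1.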

How the results depend on the processing

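No paired analysis was possible because the replicate numbers of the groups do not overlap and the labels name no mouse. The alternatives with haemoglobin genes left out and with a length trend were chosen after seeing the data. The cause of the changes below was not tested. The number of members lower in AK vs. NS was 5 as reported, 8 without the fold limit, 9 with DESeq2, 14 with library size alone, 8 with upper quartile factors, 3 with no filter, 0 with all 20 samples in 1 fit and 3 with the length trend. It ranged from 2 to 8 with 1 library left out, and the median from -0.37 to -0.21. The calls over all genes moved as well. Of 11677 genes, 278 were lower as reported, 292 without the fold limit, 616 with DESeq2, 481 with library size alone and 391 with upper quartile factors. The number was 195 of 17761 with no filter, 4 of 12847 with all 20 samples and 255 of 11239 with the length trend. Members higher in cSCC vs. NS numbered 6 with DESeq2, 1 with limma voom, 5 with library size alone, 22 with all 20 samples, 2 with the length trend and without replicate 21, and 2 without replicates 20 and 21, and 2 to 23 with 1 library left out (23 without cSCC replicate 19, 9 at the least with replicate 21 kept). In cSCC vs. NS, genes higher numbered 1490 with DESeq2, 768 with limma voom and 625 with library size alone, of 12097 each, and 1783 of 12847 with all 20 samples. They were 951 of 11862 with the length trend and without replicate 21, 733 of 12762 without replicates 20 and 21, and 1201 of 12518 without replicate 19. Genes lower in cSCC vs. NS numbered 540 with limma voom, 730 with the length trend and without replicate 21, and 825 without replicates 20 and 21. Members lower there numbered 4 with limma voom, 11 with the length trend and without replicate 21, 1 without replicates 20 and 21, and 0 to 4 with 1 library left out. The median was -0.43 with limma voom, 0.0081 with library size alone, -0.38 and -0.29 in the last 2 settings, and -0.40 to 0.73 with 1 library left out. Members higher in cSCC vs. AK numbered 12 with DESeq2, 2 with limma voom, 15 with library size alone, 4 with the length trend and without replicate 21, 5 without replicates 20 and 21, and 5 to 43 with 1 library left out (15 without AK replicate 12, 43 without cSCC replicate 19). In cSCC vs. AK, genes higher numbered 2063 with DESeq2, 726 with limma voom and 1021 with library size alone, of 12032 each. They were 873 of 11684 with the length trend and without replicate 21, and 843 of 12567 without replicates 20 and 21. Without AK replicate 12 they were 1361 of 12204, and without cSCC replicate 19 1904 of 12554. In that comparison 4 members were lower with the length trend and without replicate 21, beside 640 of 11684 genes. The median of the members was -0.0820 with limma voom, 0.46 with library size alone, 0.57 with no filter, 0.64 with all 20 samples, -0.22 with the length trend and without replicate 21, 0.0388 without replicates 20 and 21, and -0.12 to 1.12 with 1 library left out.

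Some log2 fold changes reversed. With limma voom, in cSCC vs. NS, Atp5j was -0.81, Cox6a2 -1.507 and Ndufa10 -0.0564, and in cSCC vs. AK, Atp5g1 was -0.00836 and Sdhb -0.0515. Atp5j was also -0.30 with library size alone, -0.0142 with upper quartile factors and -0.0330 with all 20 samples. Uqcrb in cSCC vs. NS was 0.32 with the length trend, 0.18 without replicate 19 and 0.12 without replicate 20. With 1 library left out, the lowest value of each of the following was that without replicate 21. In cSCC vs. NS, Atp5j ranged from -0.90 to 0.33, Atp5sl from -0.15 to 2.89, Cox6a2 from -1.98 to 2.80, Ndufa10 from -0.14 to 2.21 and Uqcrb from -1.15 to 0.18. In cSCC vs. AK, Atp5g1 ranged from -0.0583 to 2.50, Cox6a2 from -0.71 to 4.27, Cox8b from -0.0843 to 4.17, Ndufa10 from -0.14 to 2.36 and Sdhb from -0.24 to 2.02. With the length trend and without replicate 21, in cSCC vs. NS, Atp5j was -0.90, Cox6a2 -2.08 and Ndufa10 -0.21, and in cSCC vs. AK, Cox6a2 was -0.92, Cox8b -0.0791, Ndufa10 -0.22, Ndufs3 -0.0811 and Sdhb -0.37. Without replicates 20 and 21, in cSCC vs. NS, Atp5j was -0.90 and Cox6a2 -1.77, and in cSCC vs. AK, Cox6a2 was -0.44, Cox7a1 -0.25, Cox8b -1.14 and Sdhb -0.24. Differences in isoform share in cSCC vs. NS ranged with 1 library left out from -15.3 percentage points (without replicate 21) to 13.2 for Cox6a2 and from -13.0 to 12.05 for Cox8b, and for Cox8b they were -16.0 against NS and -4.78 against AK without replicates 20 and 21.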
